A study of Mus musculus with 8 samples.

Results

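The comparison described here is between livers of mice given carbon tetrachloride (CCl4) for 8 weeks and livers of mice given it for 1 week. CCl4 is a hepatotoxin that hepatocytes convert into a reactive radical, and repeated doses are a standard way to produce liver fibrosis in mice. MicroRNAs (miRNAs) were profiled by quantitative PCR on TaqMan rodent cards (A Cards v2.0), plates that carry a separate assay for a single small RNA in each well. The members were all assays with a determined threshold cycle (Ct) on the 4 cards compared, which were 178 of the 381 assays on the card, and the samples were 4 of the 8 in the series. The labels give all mice as C57B6 females (C57/BL6 in the methods), 4 weeks old when treatment began, and the material was total RNA of whole liver. Both groups received intraperitoneal CCl4 in corn oil, which the labels give as 1 mg/kg biweekly and the methods as 1 ml/kg injected 2 times weekly. The groups were CCl4 1 week (2 cards) and CCl4 8 weeks (2 cards), and the other cards, untreated mice labelled as control with no treatment (2 cards) and CCl4 4 weeks (2 cards), entered the fit and served for reference. No vehicle-only group was used here, the mice that received 8 weeks of treatment were also older at sampling, and the labels do not say that the cards of a group came from separate mice. In the design text the numbers of mice exceed those of cards for both shorter treatments, and how mice were assigned to cards is not given in the sources used here, so a p-value here measures the spread between cards.

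The Ct is the PCR cycle at which fluorescence reaches a set threshold, so each cycle less stands for about a doubling of the template. A level below is the Ct of the assay subtracted from the average Ct of the 168 assays determined on all 8 cards, which puts it in log2 units, where 0 is that card mean and a higher level means more RNA relative to the rest of the card. Levels of different assays are not compared with each other, since each primer set has its own efficiency. Differences are 8 weeks minus 1 week in log2 units with the standard error (SE) from limma, folds assume a doubling per cycle, and an assay was called when its adjusted p (limma with Benjamini-Hochberg adjustment over the 178 assays) was at most 0.05.

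A mature miRNA is a short RNA cut from 1 arm (5p or 3p) of a hairpin, and it binds messenger RNAs mainly through its seed, bases 2 to 8. In injured liver, miRNA pools reflect hepatocytes, which carry most of the RNA of the organ, together with stellate cells, endothelial cells and incoming leukocytes. In whole-organ RNA, fewer cells of a type and less RNA per cell cannot be told apart.

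Of the lists of related miRNAs described here, the let-7 family had the most members called higher at 8 weeks, and its mature sequences are shown first, with the seed in capitals, because the whole family shares the same seed. Sequences throughout are from RefSeq (build GRCm38.p6), all 29 miRNAs shown were matched by name, and where the name of an assay has no arm the main strand of the older naming was taken. let-7 miRNAs are abundant in differentiated tissues, Lin28 blocks their maturation in embryonic cells, and their known targets include Ras, Myc and Hmga2.
let-7c: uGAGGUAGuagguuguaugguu
let-7b: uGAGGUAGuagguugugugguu
let-7a: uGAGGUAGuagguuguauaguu
let-7e: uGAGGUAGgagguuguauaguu
let-7d: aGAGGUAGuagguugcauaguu
miR-98: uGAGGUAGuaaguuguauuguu
let-7i: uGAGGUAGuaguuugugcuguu
let-7f: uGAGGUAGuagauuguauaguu
let-7g: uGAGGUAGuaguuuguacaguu
The table places let-7a (Mirlet7a-1) at chr13:48538239-48538260, let-7f (Mirlet7f-1) at chr13:48537889-48537910 and let-7d at chr13:48536078-48536099, all on the minus strand, and let-7c (Mirlet7c-2) at chr15:85706616-85706637 beside let-7b at chr15:85707325-85707346 on the plus strand. Against let-7a, the other members differed at 1 base (let-7c, let-7e and let-7f), 2 bases (let-7b, let-7d, let-7g and miR-98) or 4 bases (let-7i), all outside the seed. How far each assay also reads the other members was not measured on these cards.

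Assays that belong to the imprinted Dlk1-Dio3 region, a large cluster of miRNA genes expressed from the maternal chromosome, held many of the calls in the other direction. Their sequences are shown because neighbours in 1 cluster with different seeds went both ways, the first 5 being called lower at 8 weeks, miR-411 not called and miR-494 and miR-667 called higher.
miR-134: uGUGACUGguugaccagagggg
miR-410: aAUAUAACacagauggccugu
miR-409-3p: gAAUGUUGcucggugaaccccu
miR-337-5p: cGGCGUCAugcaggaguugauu
miR-434-3p: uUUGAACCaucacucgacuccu
miR-411: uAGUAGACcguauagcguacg
miR-494: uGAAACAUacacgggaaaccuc
miR-667: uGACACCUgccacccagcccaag
No seed was shared among these 8 miRNAs. All 15 tested assays of the cluster matched genes of the plus-strand cluster on chromosome 12, between bases 109585818 and 109743784, where miR-494 (chr12:109715367-109715388) and miR-667 (chr12:109720061-109720083) lie between miR-411 (chr12:109710190-109710210) and miR-134 (chr12:109734145-109734166).

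Of the 178 assays tested, 47 were called (26.4%), 22 higher at 8 weeks (12.4%) and 25 lower (14%). The differences of called assays ran from -5.56 to 3.46, and the smallest in size was 1.00. No called assay had overlapping cards, but the cards of the 2 groups did not overlap for 130 of the 178 assays (73%) either, with 8 weeks above in 67 and below in 63. At an unadjusted p of 0.05, 74 assays passed. The median difference over all tested assays was 0.10, which the centring of each card holds near 0, against 0.51 without centring and 0.71 with centring on the control RNAs, and the changes below are relative to the card mean. In the same fit, 5 of 177 assays were called between 8 weeks and untreated liver (2.82%) and 59 of 177 between 1 week and untreated liver (33.3%); these comparisons share cards with each other and with the one described here. The 8-week cards did not overlap with the untreated cards for 106 of 174 assays (60.9%), and the 1-week cards did not for 130 of 174 (74.7%). The split between directions depended on the centring: it was 15 higher and 11 lower with the mean of all determined assays of a card, 44 and 12 with the control RNAs together, 5 and 2 without centring, 162 and 0 with U6 alone, 4 and 14 with snoRNA135 alone and 3 and 85 with snoRNA202 alone. In the plot of differences against mean Ct, calls of both directions occur from low to high mean Ct. The called assays with the lowest mean Ct, U6, miR-126-3p and miR-16, were lower at 8 weeks.

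**Figure D1:**
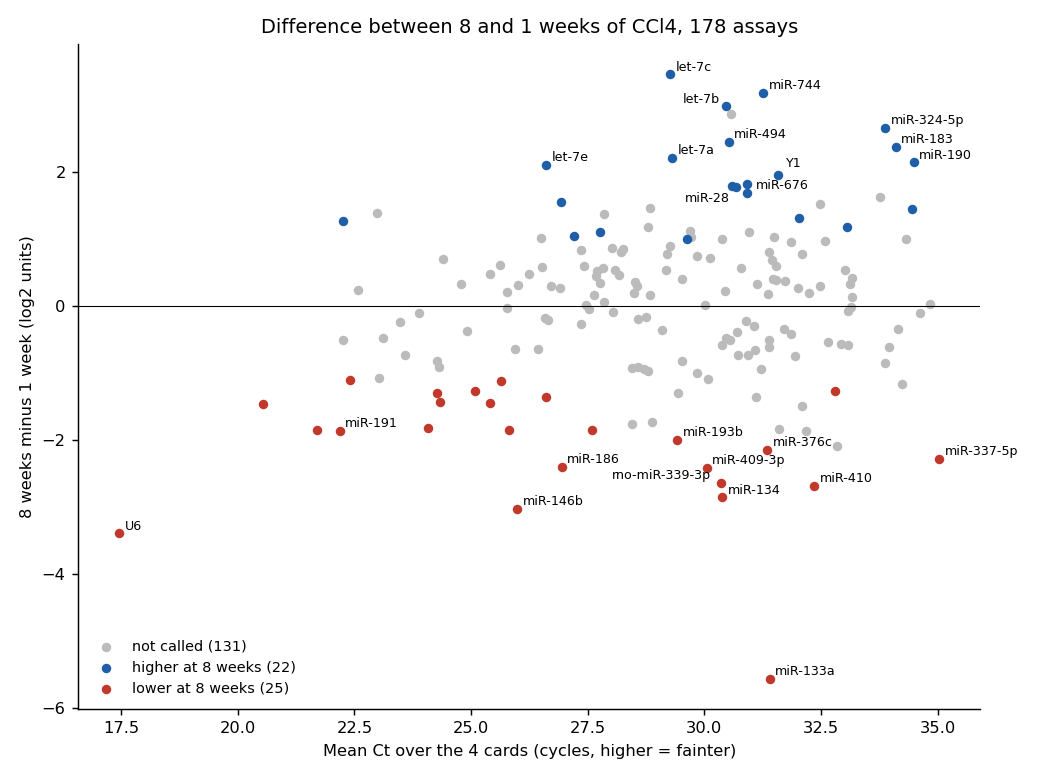
Difference between 8 and 1 weeks of CCl4 (log2 units, vertical axis) for the 178 tested assays against their mean Ct over the 4 cards (cycles, horizontal axis). Blue points are the 22 assays called higher at 8 weeks, red points the 25 called lower and grey points the 131 not called; names mark the 12 largest called differences in each direction, from let-7c at 3.46 to miR-133a at -5.56.

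The cards also differed within groups. Between 193 and 235 assays per card had a Ct. The mean Ct of the reference assays was 29.2 and 29.1 on the 1-week cards but 28.0 and 29.5 on the 8-week cards, and after centring the median SD between cards was 0.22 at 1 week and 0.34 at 8 weeks. Across the 168 reference assays, the difference between 8 and 1 weeks had a Pearson r of -0.62 with the gap between the 2 untreated cards, of 0.63 with the gap between the 2 cards of 8 weeks, of 0.29 with that at 4 weeks and of -0.15 with that at 1 week (replicate 2 minus replicate 1 each time). These are descriptions over assays of the same cards, which share the centring, and the 8-week gap uses cards of the comparison itself. Assays that differed between the times were thus often those that also differed between cards of 1 group, and the part of this in each result was not tested.

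**Figure D2:**
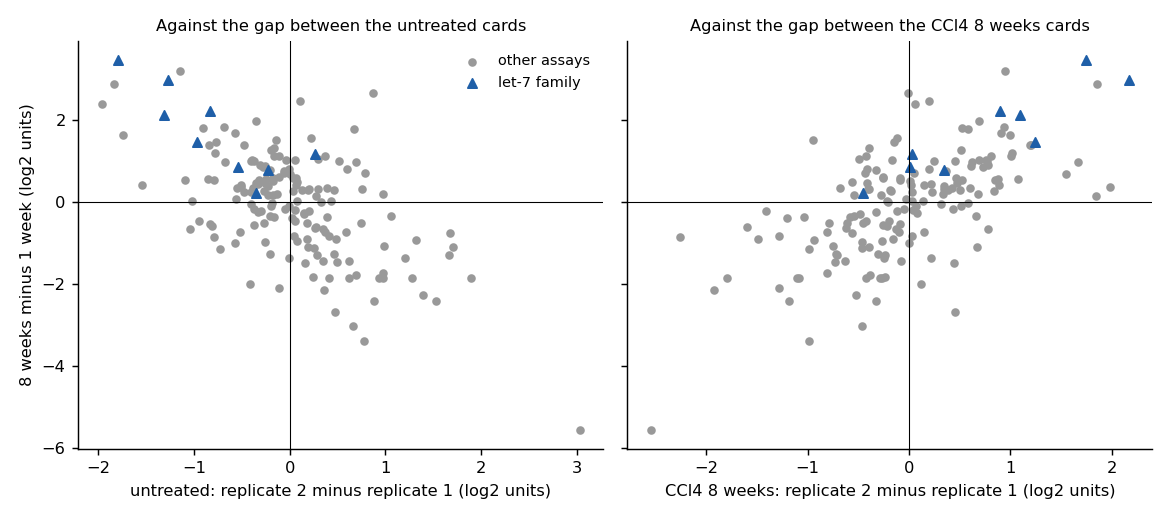
Difference between 8 and 1 weeks (log2 units, vertical axes) of 168 assays against the gap between the untreated cards (left) and between the 8-week cards (right), replicate 2 minus replicate 1 in log2 units; triangles are the let-7 family. The points run downward on the left (r of -0.62) and upward on the right (r of 0.63).

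The calls rested on particular cards. All 47 kept their direction when any 1 card was left out, but the number of calls was 5 without 1 week replicate 1, 4 without 1 week replicate 2 and 3 without 8 weeks replicate 2, against 43 without 8 weeks replicate 1. In each of these 4 fits 1 group was a single card, assumed to vary like the others. miR-494, miR-410 and U6 were called in each of the 8 fits with a card left out. They are therefore described before the larger groups. Across the 12 other alternatives (other centrings, Ct limits and fits, single control RNAs aside), 11 of the 47 calls were lost in at least 6 of 12 or 6 of 11: miR-7a, miR-215, miR-98, miR-142-3p, U87, miR-27b, miR-24, miR-106a, miR-30e, mmu-miR-339-3p and miR-376c. Conversely, 29 assays that were not called passed the threshold in at least 1 of these alternatives.

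miR-494, a member of the Dlk1-Dio3 cluster, stood at -2.75 and -2.83 on the cards of 1 week and at -0.44 and -0.24 on those of 8 weeks. The untreated cards, at -0.89 and -0.78, lay just below the 8-week cards and well above the 1-week cards. Its difference was 2.45 (SE 0.27, adjusted p = 0.00540), a 5.48-fold higher level at 8 weeks. miR-410, of the same cluster, went the other way, from -2.22 and -1.89 at 1 week to -4.97 and -4.51 at 8 weeks, with untreated cards at -6.76 and -6.29. Its difference was -2.68 (SE 0.33, adjusted p = 0.00650), a level 6.42-fold lower at 8 weeks than at 1 week, and the 8-week cards were still above both untreated cards. U6, a spliceosomal small nuclear RNA that the card carries as an endogenous control, fell from 13.49 and 12.90 to 10.29 and 9.31, with untreated cards at 10.58 and 11.36. The difference of U6 was -3.39 (SE 0.45, adjusted p = 0.00650), so a control RNA was among the largest differences under this centring. Under quantile normalization, which gives the assay with the strongest signal the same value on every card, the difference of U6 was 0.

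All 9 let-7 family assays were higher at 8 weeks than at 1 week in their means, 5 of them called and 4 not, against 12.4% of all assays called higher, and all 9 were positive under the other normalizations and without centring, except that 1 turned negative with centring on snoRNA135 alone and 4 with centring on snoRNA202 alone. The number of the 9 that were called was 9 with centring on U6 alone, 8 with the control RNAs together, 2 without centring, 1 with snoRNA135 or snoRNA202 alone and 0 with undetermined values set to Ct 40, and it was 0 without either card of 1 week and without 8 weeks replicate 2. The median difference of the family was 1.46, beside 0.10 over all tested assays. let-7c stood at -2.19 and -1.90 at 1 week and at 0.54 and 2.29 at 8 weeks, a difference of 3.46 (SE 0.72, adjusted p = 0.0199) or 11.0-fold. Both 8-week cards were above both 1-week cards, but they lay 1.75 apart, and the untreated cards were at 1.05 and -0.74.

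let-7b, its neighbour on chromosome 15, rose by a similar amount, from -3.12 and -2.89 to -1.11 and 1.06, with a difference of 2.98 (SE 0.77, adjusted p = 0.0339). Here the 8-week cards were 2.17 apart, and the untreated cards, at -0.42 and -1.69, overlapped with them. let-7a went from -1.77 and -1.14 to 0.31 and 1.21 (difference 2.22, SE 0.45, adjusted p = 0.0198), with untreated cards at 0.88 and 0.05. let-7e went from 1.11 and 1.49 to 2.86 and 3.96 (difference 2.11, SE 0.54, adjusted p = 0.0335), and its untreated cards were at 3.61 and 2.30. For both, the 1-week cards were below every untreated and 8-week card. miR-98, which carries the let-7 seed and is encoded on the X chromosome, rose from -4.47 and -4.89 to -3.52 and -3.49, a difference of 1.18 (SE 0.29, adjusted p = 0.0335), and its 8-week cards were 0.03 apart.

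The 4 family members that were not called still had 8-week means above their 1-week means. let-7d, encoded in the same stretch of chromosome 13 as let-7a, had a difference of 1.46 (SE 0.51, adjusted p = 0.0792), and its 8-week cards were at 0.23 and 1.48. The difference of let-7i was 0.84 (SE 0.31, adjusted p = 0.0811) and that of let-7f was 0.78 (SE 0.29, adjusted p = 0.0818), both with cards that did not overlap. let-7g, with 3.03 and 3.12 at 1 week and 3.51 and 3.06 at 8 weeks, had overlapping cards and a difference of 0.21 (SE 0.31, adjusted p = 0.594). Within the family the differences therefore ranged from 0.21 to 3.46 among miRNAs with the same seed, and the members with the 4 largest differences had lower levels on untreated replicate 2 than on replicate 1, by 0.83 to 1.79. Without 8 weeks replicate 2, the difference of let-7c was 2.59 (adjusted p = 0.113), that of let-7b 1.90 (adjusted p = 0.165), that of let-7a 1.77 (adjusted p = 0.113), that of let-7e 1.56 (adjusted p = 0.174) and that of miR-98 1.16 (adjusted p = 0.158), by limma with Benjamini-Hochberg adjustment.

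**Figure D3:**
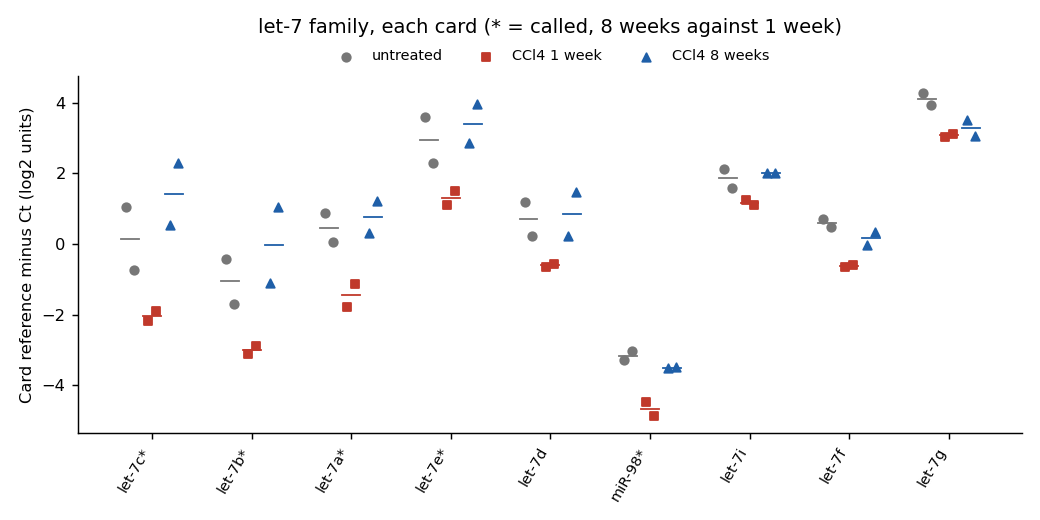
Levels of the 9 let-7 family assays (card reference minus Ct, log2 units) on each untreated card (circles), 1-week card (squares) and 8-week card (triangles), with group means as lines; asterisks mark the 5 called assays. The 1-week cards are lowest for each assay except let-7g, whose 8-week cards at 3.51 and 3.06 overlap with them.

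Other miRNAs called higher at 8 weeks came from several genes. miR-744 stood at -4.71 and -3.08 at 1 week and at -1.19 and -0.24 at 8 weeks, a difference of 3.18 (SE 0.65, adjusted p = 0.0198), and both 1-week cards were below the untreated cards at -0.86 and -2.01. miR-324-5p rose from -5.62 and -6.89 to -3.59 and -3.60 (difference 2.66, SE 0.49, adjusted p = 0.0159), with untreated cards at -4.86 and -3.99. Both genes lie on chromosome 11, miR-744 at chr11:65734799-65734820 and miR-324-5p at chr11:70012060-70012082, and their sequences are shown as those of the largest called rises outside the let-7 family.
miR-744: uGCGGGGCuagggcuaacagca
miR-324-5p: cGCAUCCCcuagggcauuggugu
They share no seed. miR-328, with 1-week cards at -3.20 and -2.91 and 8-week cards at -1.12 and 0.74, had a difference of 2.87 (SE 0.92, adjusted p = 0.0583) that was not called as reported but was called in 6 of the 12 other alternatives, such as centring on the card median (2.79, adjusted p = 0.0364, limma with Benjamini-Hochberg adjustment).

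miR-183, of a cluster known from sensory and other epithelia, was at -5.75 and -6.91 at 1 week and -3.98 and -3.92 at 8 weeks (difference 2.38, SE 0.68, adjusted p = 0.0403). It was faint, with a mean Ct of 34.1 over the 4 cards, and its untreated cards were 1.96 apart. miR-182 of the same cluster had a difference of -1.00 (SE 0.36, adjusted p = 0.0796) and was not called. Of the 7 tested biliary and epithelial assays, 2 had positive and 5 negative differences. miR-190, encoded in an intron of talin 2, rose from -6.71 and -6.49 to -4.06 and -4.85 (difference 2.15, SE 0.46, adjusted p = 0.0301) and had no Ct on 1 card of 4 weeks. miR-676 rose from -3.26 and -2.47 to -1.51 and -0.57 (difference 1.83, SE 0.45, adjusted p = 0.0335), and miR-28, encoded in an intron of Lpp, from -2.28 and -2.78 to -1.00 and -0.47 (difference 1.80, SE 0.40, adjusted p = 0.0265). For miR-676 and miR-28 the untreated cards, at -1.37 and -2.06 for the former and -0.57 and -1.48 for the latter, overlapped with the 8-week cards. miR-451, which is abundant in red blood cells and matured by Ago2 without Dicer, rose from -2.76 and -2.85 to -1.57 and -0.66 (difference 1.69, SE 0.41, adjusted p = 0.0335). The other erythroid assay, miR-486, had a difference of -0.05 and was not called.

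miR-27b, of the cluster of miR-23b, miR-27b and miR-24, rose from -0.99 and -1.33 to -0.29 and -0.04 (difference 1.00, SE 0.30, adjusted p = 0.0436), and it stayed below the untreated cards at 0.72 and 0.35. The call of miR-27b was lost in all 8 fits with a card left out and in 8 of the 12 other alternatives, with adjusted p up to 0.456 (limma). miR-24 of the same cluster and its paralog fell from 7.12 and 7.10 to 6.20 and 5.81 (difference -1.10, SE 0.31, adjusted p = 0.0377), while miR-23b at 0.69 and miR-27a at 0.40 were not called. Outside the naming rule, and named after their values were seen, miR-10b (1.56), miR-7a (1.45) and miR-215 (1.32) were also called higher and miR-484 (-1.83), miR-31 (-1.30) and the mouse assay of miR-339-3p (-1.85) called lower.

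Of the 15 tested assays of the Dlk1-Dio3 cluster, 6 were called lower at 8 weeks, 2 higher and 7 not, against 14% and 12.4% of all assays, and 34 further assays of the cluster on the card had no Ct on at least 1 of the 4 cards. In 12 of the 15 the 8-week mean was below the 1-week mean and in 3 it was above; the count below was 10 with centring on the control RNAs together and 0 with centring on U6 alone. None of the 15 was called without centring. With undetermined values set to Ct 40, miR-494 and miR-410 were the only ones of the 15 called, and leaving out either card of 1 week or 8 weeks replicate 2 left 1 lower and 1 higher call. The median difference of the cluster was -1.26. miR-134, a miRNA studied in dendritic spines of neurons, fell from -0.08 and 0.08 at 1 week to -2.37 and -3.35 at 8 weeks (difference -2.86, SE 0.43, adjusted p = 0.0118). It had a Ct on only 1 untreated card, at -4.22, so its fit against untreated liver rests on that card.

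miR-409-3p fell from 0.01 and 0.22 to -2.14 and -2.46, a difference of -2.41 (SE 0.50, adjusted p = 0.0199), and its untreated cards were far lower, at -6.65 and -5.12. The 8-week mean of miR-409-3p was thus between the other groups, 3.59 above untreated liver (SE 0.50, adjusted p = 0.0139, limma with Benjamini-Hochberg adjustment), and that of miR-410 was 1.79 above it (adjusted p = 0.0406). miR-376c fell from -1.39 and -1.25 to -2.51 and -4.43 (difference -2.15, SE 0.59, adjusted p = 0.0377), its 8-week cards being 1.92 apart. Without 8 weeks replicate 2, the difference of miR-376c was -1.19. miR-434-3p, antisense to the imprinted gene Rtl1, fell from -3.31 and -3.10 to -4.32 and -4.62 (difference -1.26, SE 0.30, adjusted p = 0.0325) and stayed above the untreated cards at -5.04 and -5.25. miR-337-5p fell from -5.22 and -4.66 to -6.96 and -7.48 (difference -2.28, SE 0.58, adjusted p = 0.0335), which is below its untreated cards at -6.94 and -5.55. Of the called assays, it had the highest mean Ct.

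miR-667 was called higher in this cluster together with miR-494, at -3.03 and -2.20 at 1 week and -1.14 and -0.55 at 8 weeks (difference 1.77, SE 0.46, adjusted p = 0.0355). Among the members that were not called, miR-411 had a difference of -1.74 (SE 0.55, adjusted p = 0.0536), miR-136 of -2.09 (SE 0.75, adjusted p = 0.0796) and miR-376a of -0.75 (SE 0.70, adjusted p = 0.441). miR-411 was called in 4 of the 12 other alternatives and miR-136 in 1 of 11. miR-379, the first gene of the large sub-cluster, was at 0.61 and 0.33 at 1 week and 0.25 and 0.29 at 8 weeks, with untreated cards at -1.70 and -1.64, and was not called. The cluster thus held assays whose 8-week cards overlapped with the untreated cards, such as miR-376c, and assays whose 8-week cards lay apart from them, such as miR-379 and miR-410. Averaged over the 13 cluster assays with a Ct on every card, the level was -4.34 and -3.81 in untreated liver, -2.32 and -1.97 after 1 week, -3.69 and -3.55 after 4 weeks and -2.86 and -3.30 after 8 weeks.

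**Figure D4:**
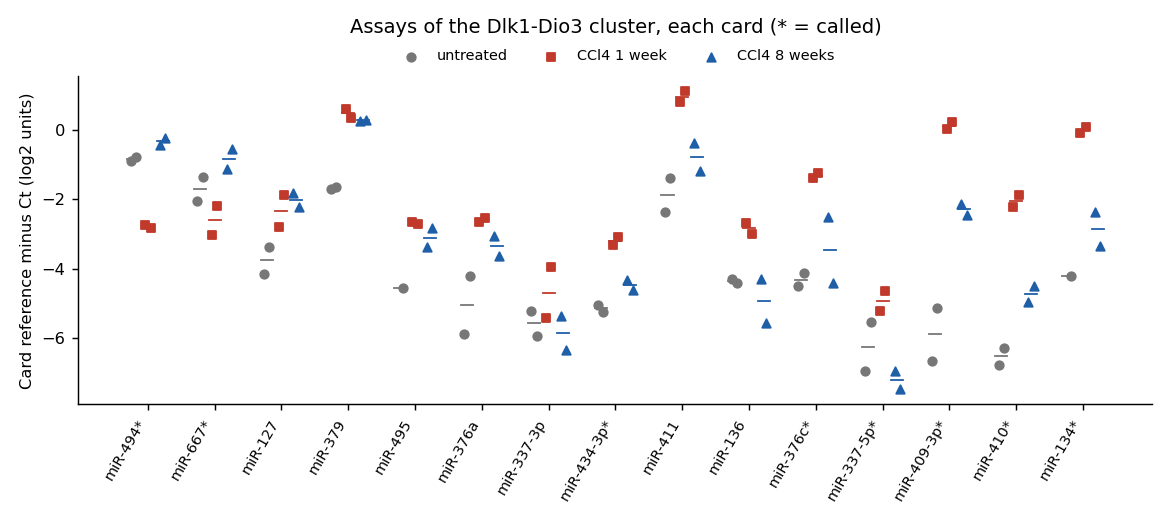
Levels of the 15 tested Dlk1-Dio3 assays (card reference minus Ct, log2 units) on each untreated, 1-week and 8-week card, ordered by difference, with group means as lines; asterisks mark called assays. Most 1-week squares lie above the triangles of 8 weeks on the right, as for miR-134 (-2.86), while miR-494 and miR-667 on the left show the reverse.

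Among 8 tested assays of miRNAs enriched in leukocytes, 3 were called lower at 8 weeks, 1 higher and 4 not, beside 14% and 12.4% of all assays, with a median difference of -0.94. None of the 8 was called lower without either card of 1 week, without 8 weeks replicate 2 or without centring. miR-146b, which is induced through NF-kappaB and dampens signalling through Traf6 and Irak1, fell from 4.61 and 4.35 at 1 week to 1.68 and 1.22 at 8 weeks, a difference of -3.03 (SE 0.48, adjusted p = 0.0110), or 8.15-fold. Its untreated cards, at 0.57 and 1.23, overlapped with those of 8 weeks, and it is encoded at chr19:46342790-46342811 on the plus strand. It is shown as the miRNA with the largest fall apart from miR-133a.
miR-146b: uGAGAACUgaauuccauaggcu
miR-150, abundant in mature lymphocytes, fell from 3.97 and 4.17 to 2.35 and 2.09 (difference -1.85, SE 0.32, adjusted p = 0.0125) and overlapped there with the untreated cards at 2.05 and 2.46. miR-342-3p, encoded in an intron of Evl, fell from 5.25 and 5.45 to 4.23 and 3.60 (difference -1.43, SE 0.36, adjusted p = 0.0335), and it stayed above the untreated cards at 2.64 and 3.26. The call of miR-342-3p was lost in 5 of the 12 other alternatives. Its difference was -0.83 with centring on the control RNAs (adjusted p = 0.139) and -0.75 under quantile normalization (adjusted p = 0.113, limma in both).

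The 4 leukocyte assays that were not called had negative differences, except with centring on the control RNAs, where miR-142-5p was at 0.04, and with centring on U6 alone, where all 8 were positive. miR-146a, the paralog of miR-146b, was at 6.46 and 6.50 at 1 week and 5.78 and 5.03 at 8 weeks (difference -1.07, SE 0.46, adjusted p = 0.124). miR-223, a marker of neutrophils and other myeloid cells, was at 5.97 and 5.51 at 1 week and 5.05 and 4.95 at 8 weeks (difference -0.74, SE 0.31, adjusted p = 0.116), above its untreated cards at 3.65 and 4.02 at both times. miR-155, induced in activated macrophages and lymphocytes, had a difference of -0.82 (SE 0.32, adjusted p = 0.0971). Averaged over the 8 assays, the level was 0.97 and 1.33 in untreated liver, 2.83 and 2.90 after 1 week and 2.00 and 1.64 after 8 weeks.

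miR-142-3p was the leukocyte assay that went the other way, from 0.68 and 0.60 to 1.96 and 1.54 (difference 1.11, SE 0.32, adjusted p = 0.0403), while the other arm of its hairpin, miR-142-5p, was at -3.88 and -3.48 at 1 week and -4.12 and -4.37 at 8 weeks (difference -0.56, SE 0.30, adjusted p = 0.214). The call of miR-142-3p was lost in 7 of the 12 other alternatives, such as centring on assays below Ct 35 (1.02, adjusted p = 0.0623, limma with Benjamini-Hochberg adjustment), and in 6 of the 8 fits with a card left out. The arms of miR-339 also had opposite signs, with miR-339-3p falling from 2.29 and 2.29 to 0.98 and -0.10 (difference -1.85, SE 0.51, adjusted p = 0.0377) and miR-339-5p at -2.73 and -2.36 at 1 week and -1.94 and -0.93 at 8 weeks (difference 1.11, SE 0.46, adjusted p = 0.113). The separate rat assay rno-miR-339-3p likewise fell, from 0.11 and -0.25 to -1.91 and -3.52 (difference -2.64, SE 0.62, adjusted p = 0.0335). The arms of both hairpins are shown because each pair comes from 1 precursor but has different seeds.
miR-142-3p: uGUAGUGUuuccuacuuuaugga
miR-142-5p: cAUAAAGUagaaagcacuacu
miR-339-3p: uGAGCGCCucggcgacagagccg
miR-339-5p: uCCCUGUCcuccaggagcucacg
The difference between arms was not tested. Of the 7 hairpins with both arms tested, miR-126 and miR-337 had both arms lower in their means, and none had both arms called.

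The hepatocyte assays, listed as enriched in hepatocytes, were determined on every card, and none of 5 was called, beside 26.4% of all assays. miR-122, the classical hepatocyte miRNA, had a mean Ct of 23.0 over the 4 cards and stood at 5.09 and 5.47 at 1 week and 6.06 and 7.26 at 8 weeks, with untreated cards at 7.05 and 6.21. The cards of the 2 times did not overlap, and its difference was 1.38 (SE 0.50, adjusted p = 0.0811). It passed the threshold with centring on the control RNAs (1.99, adjusted p = 0.0274) and in the fit with a variance trend (1.38, adjusted p = 0.0424, limma with Benjamini-Hochberg adjustment in both). With 1 card left out, the difference of miR-122 ranged from 0.78 to 1.98, the largest being without 8 weeks replicate 1. miR-192 had a difference of -0.50 (SE 0.39, adjusted p = 0.363), miR-194 of -0.37 (SE 0.34, adjusted p = 0.439), miR-148a of 0.26 (SE 0.28, adjusted p = 0.495) and miR-802 of -0.22 (SE 0.29, adjusted p = 0.554). miR-802 was at -1.71 and -1.95 at 1 week and -2.00 and -2.11 at 8 weeks, while its untreated cards were at -0.06 and 0.14, so its level was lower than in untreated liver at both times, with a difference at 8 weeks of -2.09 (adjusted p = 0.0139, limma).

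The miR-29 family, which targets collagens, elastin and fibrillin and is the subject of the study, had no called member of 3 tested between 8 and 1 weeks, beside 26.4% of all assays. miR-29b stood at -3.69 and -4.87 at 1 week and -2.29 and -3.23 at 8 weeks, a difference of 1.52 (SE 0.47, adjusted p = 0.0526), and its cards did not overlap. It was called with centring on the control RNAs (2.13, adjusted p = 0.0146) and in the fit blocked on replicate number (1.52, adjusted p = 0.0453, limma with Benjamini-Hochberg adjustment). With 1 card left out, the difference of miR-29b ranged from 0.94 to 2.11. miR-29a was at 6.31 and 6.21 at 1 week and 6.48 and 6.51 at 8 weeks (difference 0.24, SE 0.29, adjusted p = 0.537), and miR-29c at 3.12 and 3.51 at 1 week and 3.99 and 3.58 at 8 weeks (difference 0.47, SE 0.34, adjusted p = 0.323). The untreated cards of the family were higher than those of both times, at 7.30 and 6.82 for miR-29a, -1.56 and -1.70 for miR-29b and 4.84 and 4.49 for miR-29c. Cards that did not overlap with the untreated cards, in either direction, were common among all assays, at 60.9% for 8 weeks and 74.7% for 1 week. miR-21, a miRNA that is often raised in injured and fibrotic tissue, was at 4.21 and 3.81 at 1 week and 4.68 and 4.00 at 8 weeks (difference 0.33, SE 0.35, adjusted p = 0.491), with overlapping cards. It was called higher under quantile normalization (1.08, adjusted p = 0.0230, limma with Benjamini-Hochberg adjustment). The 4 tested assays of mesenchymal miRNAs, namely miR-199a-3p (0.45), miR-214 (0.34), miR-143 (0.17) and miR-145 (-0.02), were not called, beside the 26.4% of all assays that were.

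**Figure D5:**
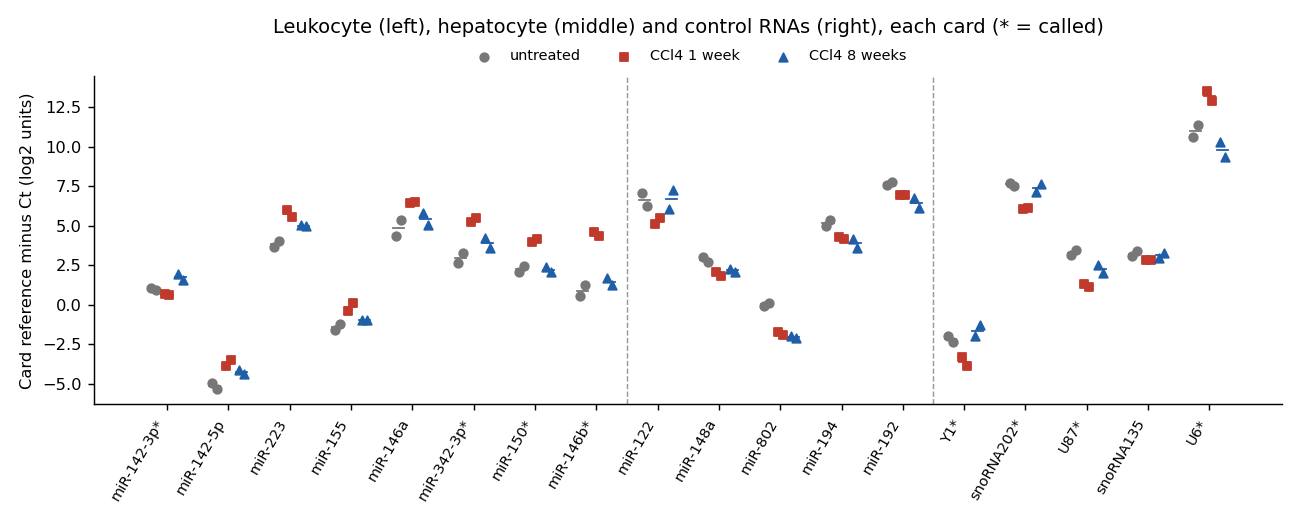
Levels of leukocyte (left), hepatocyte (middle) and endogenous control RNA assays (right) in log2 units on each untreated, 1-week and 8-week card, with group means as lines; asterisks mark called assays. miR-146b falls by 3.03 and U6 by 3.39 from 1 to 8 weeks, while no hepatocyte assay is marked.

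Of the 5 endogenous control RNAs, which are meant to be stable, 4 were called, beside 26.4% of all assays. Besides U6, the small nucleolar RNA snoRNA202 rose from 6.06 and 6.09 to 7.09 and 7.61 (difference 1.28, SE 0.32, adjusted p = 0.0335). The Ro-associated Y RNA Y1 rose from -3.30 and -3.91 to -1.99 and -1.30 (difference 1.96, SE 0.56, adjusted p = 0.0403), and U87 from 1.32 and 1.13 to 2.52 and 2.03 (difference 1.05, SE 0.30, adjusted p = 0.0403). The 3 rises held under fewer settings than the fall of U6: 1 was called with the card median, with the mean of all determined assays or with the replicate number as a block, and 0 without centring or with undetermined values set to Ct 40. With a card left out, U87 was called in 0 of 8 fits, Y1 in 2 and snoRNA202 in 5. Only snoRNA135 was not called, at 2.81 and 2.81 at 1 week and 2.94 and 3.29 at 8 weeks (difference 0.31, SE 0.31, adjusted p = 0.475). The direction of many assays changed with the control used for centring: 4 of the 22 higher calls, among them miR-98 and miR-142-3p, turned negative with snoRNA202 alone, and 23 of the 25 lower calls turned positive with U6 alone.

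miR-133a, a miRNA of skeletal and heart muscle, had the largest difference of the comparison, -5.56 (SE 1.50, adjusted p = 0.0374). Its cards at 1 week were 3.92 apart, at -1.62 and 2.29, and those of 8 weeks were at -3.96 and -6.50. The untreated cards, at -4.73 and -1.70, overlapped with the 8-week cards. The other tested muscle assay, rno-miR-1, was at -6.36 and -3.03 at 1 week and -4.95 and -5.68 at 8 weeks, so 1 week replicate 2 had the higher level for both muscle assays. Outside the fit, the muscle assay miR-133b had a Ct on this card alone of the 8 (32.96). The same held for the pancreas assays miR-216a (35.99) and miR-217 (35.97). The muscle assay miR-208 and the pancreas assay miR-375 had a Ct on other cards but not on that card. Without that card, the difference of miR-133a was -3.60 (adjusted p = 0.147, limma with Benjamini-Hochberg adjustment) and that of rno-miR-1 was 1.05.

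The miR-15/16 family shares a seed as let-7 does, and 1 of its 6 tested assays, miR-16, was called as reported, beside 26.4% of all assays. miR-16, known to target cyclins and Bcl2, fell from 8.28 and 8.11 at 1 week to 6.89 and 5.79 at 8 weeks (difference -1.85, SE 0.50, adjusted p = 0.0374), and the 8-week cards were below both untreated cards at 7.05 and 7.98. With centring on the control RNAs, miR-16 was not called (-1.25, adjusted p = 0.0902) and miR-497 was called higher (1.61, adjusted p = 0.0246), and under quantile normalization miR-16 was at -0.82 (adjusted p = 0.250, limma in each). Its genes lie beside those of miR-15a and miR-15b, at chr14:61631936-61631957 and chr3:69009918-69009939. The sequences are shown because members with 1 seed, and 2 pairs of neighbours, had differences of opposite sign.
miR-16: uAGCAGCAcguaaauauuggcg
miR-15a: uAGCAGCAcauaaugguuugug
miR-15b: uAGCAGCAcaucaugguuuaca
miR-195: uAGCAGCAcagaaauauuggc
miR-497: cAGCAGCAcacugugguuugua
The difference was 0.80 for miR-15a, 0.53 (SE 0.48, adjusted p = 0.433) for miR-15b, 0.48 for miR-195 and 1.01 (SE 0.36, adjusted p = 0.0796) for miR-497, none called, and that of miR-322 was -0.29.

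miR-126-3p, which is made in endothelial cells from an intron of Egfl7, fell from 9.20 and 9.12 to 8.06 and 7.33 (difference -1.46, SE 0.41, adjusted p = 0.0377), below its untreated cards at 8.43 and 8.92. Under quantile normalization its difference was -0.36 (adjusted p = 0.593, limma), and its call was lost in 5 of the 12 other alternatives. Its partner miR-126-5p was at 5.07 and 5.12 at 1 week and 4.91 and 3.63 at 8 weeks (difference -0.82, SE 0.45, adjusted p = 0.219). miR-203, a miRNA of stratified epithelia, fell from 3.15 and 2.91 to 1.79 and 1.55 (difference -1.36, SE 0.27, adjusted p = 0.0198), and it was the only one of 7 tested biliary and epithelial assays called lower, with miR-183 the only one called higher, beside 14% and 12.4% of all assays. miR-30e fell from 4.55 and 4.45 to 3.59 and 2.87 (difference -1.27, SE 0.35, adjusted p = 0.0379), while the other 4 members of the miR-30 family, from -0.47 to 0.59, were not called. For miR-126-3p, miR-203 and miR-30e the 8-week cards were below the untreated cards, and the differences from untreated liver at 8 weeks, -0.97, -1.23 and -1.21, were not called.

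miR-193b fell from 0.41 and 0.67 to -1.52 and -1.40 (difference -2.00, SE 0.31, adjusted p = 0.0110), and miR-186 from 3.31 and 3.12 to 1.40 and 0.22 (difference -2.40, SE 0.59, adjusted p = 0.0335). miR-191 fell from 7.71 and 7.70 to 6.05 and 5.63 (difference -1.86, SE 0.33, adjusted p = 0.0137). The untreated cards of miR-191, at 6.08 and 6.70, lay between the 1-week cards and the 8-week cards. miR-222 fell from 4.30 and 4.24 to 2.86 and 2.78 (difference -1.45, SE 0.27, adjusted p = 0.0171), while miR-221, encoded beside it on the X chromosome, was at -1.74 and -0.79 at 1 week and -0.70 and -0.33 at 8 weeks (difference 0.75, SE 0.37, adjusted p = 0.176) and was not called. miR-106a, a paralog of the growth-promoting miR-17, was the only one of 11 tested assays of the miR-17 cluster and its paralogs that was called, beside 26.4% of all assays, at -1.11 (SE 0.32, adjusted p = 0.0403), a call lost in 8 of the 12 other alternatives. miR-17 itself had a difference of -0.91 (SE 0.32, adjusted p = 0.0792).

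Several families had no called member, beside the 26.4% of all assays that were called. The miR-99, miR-100 and miR-125 assays had differences from -0.27 to 1.38 (5 tested), although 4 of the 5 were called higher with centring on the control RNAs, among them miR-125b-5p (1.98, adjusted p = 0.0274) and miR-99a (1.47, adjusted p = 0.0273), and miR-99a also in the fit with a variance trend (0.87, adjusted p = 0.0470, limma). With 1 card left out, the difference of miR-125b-5p ranged from 0.77 to 1.98 and that of miR-99a from 0.56 to 1.18. Differences ran in the family of miR-148 and miR-152 from 0.17 to 0.30 (3 tested) and in that of miR-130 and miR-301 from -0.39 to 0.72 (4 tested). None was called as reported of 3 assays of miR-26 and miR-101, although miR-26a was called higher in 3 of the 12 other alternatives, and none of miR-103 and miR-107, of 2 of the miR-34 family, of 2 of the miR-181 family, of 2 neural assays, of miR-132 or of 6 of the cluster that holds miR-322 and miR-503. miR-210 at -0.92 and miR-184 at -0.53 were not called either. No pancreas assay was determined on all 4 cards.

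A further 77 assays had a Ct on some of the 4 cards and 126 on none. Those with both cards of 1 group and none of the other could not enter the fit. At 1 week only, miR-431, of the Dlk1-Dio3 cluster, had a mean Ct of 31.9 over the 2 cards, rno-miR-347 of 32.7 and miR-135b of 35.3, and none of these had a Ct on an untreated card. At 8 weeks only, miR-382, also of the Dlk1-Dio3 cluster, had a Ct of 31.5 and 32.9 and no Ct on the untreated cards. miR-375, a miRNA of endocrine and epithelial cells, was at 35.3 and 34.8 at 8 weeks only, and miR-294, miR-542-3p and miR-741 were likewise determined at 8 weeks and not at 1 week, all with a Ct on both untreated cards. A missing Ct was not read as absence of the RNA.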

How the data were processed

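The authors isolated total RNA from whole liver (mirVana kit), reverse transcribed it without pre-amplification and ran it on the cards, and they deposited non-normalized Ct values, in cycles, for every assay and card, which are the values used here. The deposited table of fold changes holds the authors' own comparisons and was not used. The software and threshold that set the Ct are not given in the sources used here.

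Groups were taken from the sample labels. Each Ct was subtracted from the mean Ct of its card over the 168 assays determined on all 8 cards. The 178 assays determined on the 4 cards compared were fitted by lmFit and eBayes in 1 model of 4 groups over all 8 cards (limma 3.58.1 under R 4.3.3, with 3.21 prior degrees of freedom). Of these assays, 10 lacked a value on another card and were fitted without it. P-values were two-sided and adjusted by the Benjamini-Hochberg method over the 178 assays, with a threshold of 0.05. An exact permutation test of 2 cards against 2 cannot go below a p of 0.333, so no such test was reported, and the number of cards limits the precision. On 20 simulated sets of cards with 176 assays, the fit called 75.9% of changes of 2 log2 units and 0.993% of unchanged assays. These shares describe the simulated cards only. The share of false calls on the deposited cards was not measured.

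The miRNAs named were the 12 largest called differences in each direction with both 8-week cards outside the range of the 1-week cards, the called members of the lists (families, clusters, cell type markers) with up to 4 uncalled examples each, and miR-29a/b/c, miR-122, miR-21 and the control RNAs. Named outside this rule were also miR-328 and miR-339-5p, which were not called and are in no list. For the miR-15/16 family all 5 uncalled assays were named. Members and lists were chosen with earlier results of these data known. Alternatives were other centrings, limits on Ct, a replicate block, a Ct of 40 in place of undetermined values, only the 4 cards, a variance trend and each card left out; centring on single control RNAs was added after seeing the data. Plots were drawn with matplotlib 3.10.9.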

Additional observations from a re-analysis of the deposited data

Results flagged for a closer look

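For 47 assays the change from untreated liver differed between 8 weeks and 1 week of CCl4, by the limma contrast between the 2 times at an adjusted p of 0.05. Each is one of the calls described above.

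Among assays outside the fit, 4 had a Ct on both cards of 1 time, on neither card of the other time and on no untreated card. miR-431 had a mean Ct of 31.9 on the cards of 1 week, rno-miR-347 of 32.7 and miR-135b of 35.3. miR-382 had a mean Ct of 32.2 on the cards of 8 weeks. They were left out of the fit as reported. In the alternative with undetermined values set to Ct 40 the other time holds filled-in values alone, which set both the size and the p, so no test of these 4 is given.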

How the results depend on the processing

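Across the alternatives other than single control RNAs, the 47 called assays kept their direction wherever they could be tested, except U6 under quantile normalization, where its difference was 0. The counts depended on the centring. Centring on all determined assays of a card gave 26 calls (15 higher, 11 lower) and a median difference over all assays of 0.29, against 47, 22, 25 and 0.10 as reported. Centring on the control RNAs together gave 44 higher and 12 lower with a median of 0.71, and put miR-802 at 0.38, miR-192 at 0.10, miR-194 at 0.24 and miR-142-5p at 0.04. Quantile normalization gave 20 calls (10 higher, 10 lower), with miR-192 at 0.16, miR-194 at 0.10 and miR-126-5p at 0.041, and called miR-21. No centring gave 7 calls (5 higher, 2 lower) with a median of 0.51, miR-802 at 0.18 and miR-194 at 0.035. Undetermined values set to Ct 40 gave 19 calls (6 higher, 13 lower), of which 12 were shared with the calls as reported and the other 7 had a filled-in value on a card compared, 5 of them on both cards of a time, so that the filled-in Ct sets their size and p. With single control RNAs, added after seeing the data, U6 gave 162 calls (162 higher, 0 lower, limma; 163 at an unadjusted p of 0.05) and a median of 3.50, snoRNA135 gave 18 (4 higher, 14 lower) and -0.21, and snoRNA202 gave 88 (3 higher, 85 lower) and -1.18. The cause of these shifts was not tested.

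With 1 card left out, the counts ranged from 3 to 50 in all, from 1 to 21 higher and from 2 to 29 lower, with the low values from leaving out either card of 1 week or 8 weeks replicate 2. The differences ranged from -2.29 to 1.05 for rno-miR-1, from -0.0081 to 0.67 for miR-21 and from -0.013 to 0.44 for let-7g. With the replicate number as a block, 39 assays were called, 38 of them shared with the calls as reported, and miR-29b passed the threshold. The 9 calls lost were Y1, U87, miR-7a, miR-27b, miR-24, miR-106a, miR-30e, mmu-miR-339-3p and miR-376c. The numbers were not taken as pairing the cards, since the correlation across assays between deviations of same-numbered cards had no common sign: 0.000287 for 1 and 8 weeks, 0.42 for 4 and 8 weeks, 0.052 for 1 and 4 weeks, 0.090 for untreated and 1 week, -0.37 for untreated and 4 weeks and -0.50 for untreated and 8 weeks. Ct values of faint assays are less precise, and 9 of the called assays had a mean Ct above 32.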
